A study of Mus musculus with 6 samples.

Results

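The 10 genes described here make and load the MHC molecules that show peptides to T cells. They were chosen by symbol from 56884 genes in the count files: *B2m*, *H2-K1*, *H2-D1*, *Tap1*, *Tapbp*, *Psmb8*, *Psmb9*, *Nlrc5*, *Cd74* and *H2-Ab1*. The data are RNA sequencing counts of 6 libraries from organoids of mouse small intestine; organoids are cultures of epithelium, and none of the labels adds immune cells. Every organoid carried Ythdf2 fl/fl (both copies of *Ythdf2*, a reader of methylated adenosine in RNA, flanked by recombination sites), Villin-CreERT2 (a tamoxifen-activated recombinase driven by an epithelial promoter) and Lgr5-EGFP-IRES-CreERT2 (a green marker and the same recombinase in stem cells). Cultures received 0.5 µM 4-OHT, the active form of tamoxifen, or its solvent ethanol (EtOH), and Lgr5-GFP+ cells were sorted 4 or 6 days later. Day 6 has 2 libraries per treatment and day 4 has 1. The EtOH libraries carry the same alleles, strain and age of the mice are not given in the sources used here, and nothing says whether replicates came from separate mice or cultures, so p-values measure only the spread between these libraries.

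Class I MHC molecules sit on nearly all nucleated cells. The proteasome cuts proteins into peptides, the TAP transporter moves the peptides into the endoplasmic reticulum, tapasin bridges TAP to empty class I molecules, and the heavy chain leaves for the surface together with beta-2 microglobulin. Interferons raise these genes in most cells through dedicated transcription factors, interferon gamma being the strongest inducer. Class II molecules, which show peptides taken up from outside, are made by antigen-presenting cells and are switched on in gut epithelium mainly by interferon gamma through the factor CIITA.

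Library totals ran from 14345379 to 21461835 gene counts. Before any direction is read, the targeted gene goes against its label: *Ythdf2* had 1563 and 1312 counts in the EtOH libraries at day 6 against 4463 and 3816 in those labelled 4-OHT, and 1483 against 2466 at day 4. Its log2 fold change at day 6 was 1.37 (SE 0.16, edgeR quasi-likelihood test, Benjamini-Hochberg adjusted p = 0.0018). Counts per gene cannot show whether the floxed exon is missing, so the groups are called "labelled 4-OHT" and "EtOH" throughout. The epithelial gene *Epcam* had 13687 to 26257 counts and the stem cell receptor gene *Lgr5* 4035 to 7182. Of 26 immune cell markers, 8 had no count in any library, 16 none at day 6, and 24 had 10 counts or fewer in every library. *Itgam* was the 1 marker with enough counts to test at day 6. Its log2 fold change was 0.98 and it was not called by edgeR. Another annotated gene, *Gm49368*, overlaps 67.4% of its exon bases. *Ptprc*, which marks all leukocytes, had 2 counts (EtOH) and 1 count (labelled 4-OHT) at day 4 and 0 in all 4 day 6 libraries.

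The promoter letters that interferon-activated factors bind give the background to what follows. Stretches of 120 bases before the start are shown, from RefSeq promoters on GRCm38.p6. They come from the genes of the class I light chain and both classical heavy chains among the members. A pair of interferon response genes that differed between the labels is shown beside them. Capitals mark the interferon-stimulated response element, searched as GAAA, any 2 bases and GAAA again, or its shorter form GAANNGAAA, on either strand. B2m is at chr2:122147537-122147656 (plus strand), H2-K1 at chr17:34000388-34000507 (minus), H2-D1 at chr17:35262884-35263003 (plus), Ifit1 at chr19:34640769-34640888 (plus) and Rsad2 at chr12:26456473-26456592 (minus).
B2m: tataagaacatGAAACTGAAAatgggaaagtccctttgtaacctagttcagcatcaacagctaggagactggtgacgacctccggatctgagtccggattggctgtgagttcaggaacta
H2-K1: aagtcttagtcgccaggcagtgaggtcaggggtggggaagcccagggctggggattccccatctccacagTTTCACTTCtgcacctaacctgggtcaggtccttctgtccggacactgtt
H2-D1: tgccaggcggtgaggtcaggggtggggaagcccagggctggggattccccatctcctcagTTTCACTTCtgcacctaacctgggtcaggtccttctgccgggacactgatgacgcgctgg
Ifit1: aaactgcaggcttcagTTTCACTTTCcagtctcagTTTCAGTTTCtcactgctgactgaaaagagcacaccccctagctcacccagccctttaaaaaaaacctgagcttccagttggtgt
Rsad2: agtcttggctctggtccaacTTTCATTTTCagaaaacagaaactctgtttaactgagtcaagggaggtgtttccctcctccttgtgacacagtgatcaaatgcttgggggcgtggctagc
The full-length element begins 139 bases before the *B2m* start. *H2-K1* and *H2-D1* hold only the shorter form, within stretches that look alike, and *Ifit1* holds the full element more than once. Windows from 250 bases before to 50 after the start were found for 7 of the 10 members. The full element was in 1 of these 7 and the shorter form (which a full element does not hold by itself) in 2 others. The full element was in 12 of the 22 genes of an interferon alpha/beta response list that have a window (54.5%), in 11 of 14 genes of the interferon gamma list (78.6%) and in 3.99% of the windows of all 27025 genes. The shorter form was in 8.68% of all windows. A match describes these letters and is not evidence of binding.

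No class I, class II or loading gene among the members passed the test at day 6. Of the 10 members, 7 had enough counts to test, and none was called at an adjusted p under 0.05 by edgeR, with 1 (*Psmb9*) at an unadjusted p under 0.05 and none by DESeq2. Over all 14066 genes tested, 2.51% were called, 2.27% higher and 0.235% lower. The 7 tested members had a median log2 fold change of 0.018, and 4 of them were positive, beside a median of −0.013 and 48.2% positive over all genes. With 2 libraries per label the 95% interval of *B2m* ran from −0.33 to 0.36 on the log2 scale. Changes within those bounds are compatible with the data, but the bounds are not a limit of detection. Larger changes could also miss the threshold, as *Psmb9* did at a log2 fold change of −0.85 (edgeR adjusted p = 0.18). The plot of the members by library shows their levels.

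**Figure D1:**
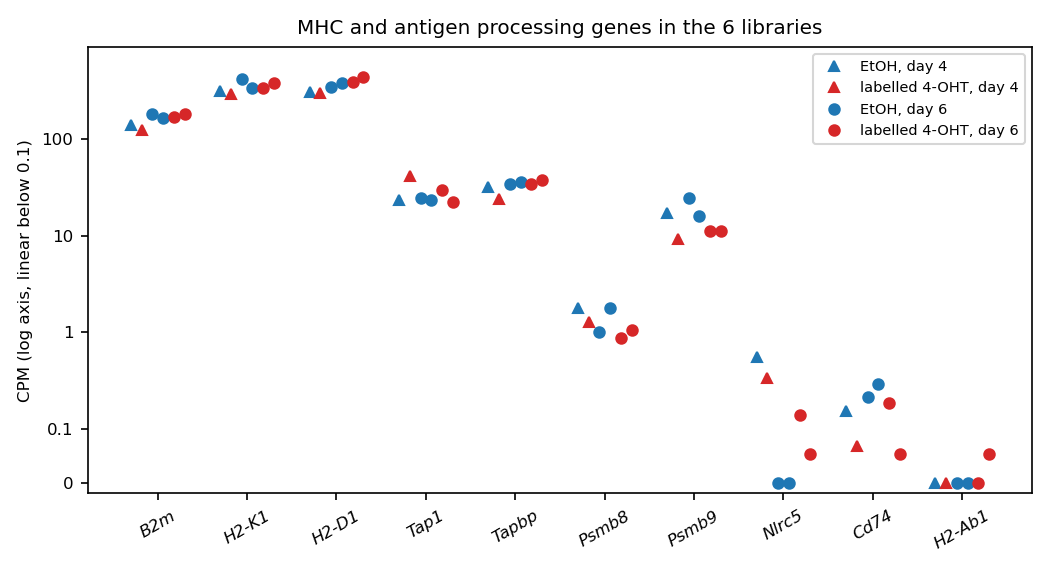
CPM, the counts scaled to library size (log axis, linear below 0.1), of the 10 genes in the 6 libraries; each point is 1 library, triangles are day 4 and circles day 6, blue EtOH and red labelled 4-OHT. *B2m*, *H2-K1* and *H2-D1* lie above 100 CPM in every library, while *Nlrc5*, *Cd74* and *H2-Ab1* lie below 1.

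*H2-K1* encodes the classical heavy chain H2-K (GRCm39 chromosome 17, 34214987 to 34219321, minus strand). It had 421 and 338 CPM in the EtOH libraries at day 6 and 339 and 381 CPM in those labelled 4-OHT, and 314 CPM (EtOH) against 290 CPM (labelled 4-OHT) at day 4. The groups overlap at day 6. The log2 fold change was −0.071 (SE 0.17, 95% interval −0.46 to 0.32, adjusted p = 0.96), and its sign depends on single libraries, ranging from −0.21 to 0.089 when each is left out.

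*H2-D1*, the other classical heavy chain gene (chromosome 17, 35481691 to 35486475, plus strand), had 347 and 377 CPM with EtOH and 393 and 443 CPM labelled 4-OHT at day 6. It was the one tested member with both labelled libraries above both EtOH libraries, which 19.9% of all genes tested showed. Its log2 fold change was 0.21 (SE 0.16, 95% interval −0.15 to 0.58, adjusted p = 0.78). At day 4 the order was the other way, with 308 CPM (EtOH) and 301 CPM (labelled 4-OHT).

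*B2m*, the light chain shared by class I molecules (chromosome 2, 121977957 to 121983594, plus strand), had 181 and 165 CPM with EtOH and 168 and 181 CPM labelled 4-OHT at day 6. At day 4 it had 141 CPM (EtOH) and 124 CPM (labelled 4-OHT). The day 6 groups cover the same range, with means of 173 ± 11.7 and 175 ± 9.06 CPM (SD, n = 2 each). The log2 fold change was 0.018 (SE 0.16, adjusted p = 0.99).

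*Tapbp*, which encodes tapasin (chromosome 17, 34134873 to 34148267, plus strand), had 34.8 and 36.1 CPM with EtOH and 34.5 and 38.0 CPM labelled 4-OHT at day 6, and 32.2 against 24.2 CPM at day 4. Its groups overlap at day 6, with a log2 fold change of 0.036 (SE 0.18, adjusted p = 0.98). For *B2m*, *H2-K1*, *H2-D1* and *Tapbp*, both day 4 libraries lay below all 4 day 6 libraries. That was 4 of the 7 tested members and 10.8% of all genes. Day 4 and day 6 libraries carry separate library name series, so day and library series cannot be told apart.

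*Tap1* encodes one chain of the peptide transporter (chromosome 17, 34405996 to 34416199, plus strand). Its day 6 levels were 24.5 and 23.7 CPM with EtOH and 29.8 and 22.3 CPM labelled 4-OHT. The labelled libraries lay on either side of the EtOH ones. The log2 fold change was 0.12 (SE 0.22, 95% interval −0.36 to 0.60, adjusted p = 0.94), and −0.11 without the first labelled library. At day 4 the single libraries were further apart, 23.3 CPM (EtOH) and 41.4 CPM (labelled 4-OHT), a log2 ratio of 0.83. It was the only one of the 7 members with a ratio above 0 at day 4. None reached 2-fold there, a size that 5.83% of all genes reached upward and 2.3% downward.

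The immunoproteasome subunits replace standard subunits of the proteasome and change which peptides it cuts. *Psmb9*, whose product takes the place of the *Psmb6* subunit (chromosome 17, 34400960 to 34406738, minus strand), was lower in every labelled library than in every EtOH library. Its counts were 458 and 274 (24.5 and 15.9 CPM) with EtOH and 243 and 207 (11.3 and 11.1 CPM) labelled 4-OHT at day 6. At day 4 they were 336 (17.1 CPM) and 138 (9.34 CPM). The log2 fold change at day 6 was −0.85 (SE 0.26, 95% interval −1.43 to −0.26, unadjusted p = 0.0090) and missed the threshold after adjustment (adjusted p = 0.18). The day 4 ratio was −0.87. Both labelled libraries lay below both EtOH libraries at day 6 in 18.8% of all genes tested, and the labelled day 4 library was lower as well in 14.2%.

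With all 6 libraries in 1 fit, 3 of each label and day as a term, *Psmb9* fell by 0.86 on the log2 scale (SE 0.19, 95% interval −1.29 to −0.43, adjusted p = 0.033). It was the 1 member called of 8 tested, where 4.09% of 16031 genes were called, 3.42% higher and 0.674% lower. That fit holds the same 4 day 6 libraries and is not a second experiment. The call rests on most of its libraries. Its adjusted p was 0.17 without the EtOH day 4 library, 0.16 without the labelled day 4 library, 0.082 without the first EtOH library of day 6, and 0.11 and 0.13 without either labelled library of day 6. Without the second EtOH library of day 6 it was 0.0096, and with no day term 0.071. DESeq2 gave 0.0033.

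*Psmb8*, whose product replaces that of *Psmb5* (chromosome 17, 34416690 to 34420428, plus strand), was low. It had 19 and 31 counts with EtOH and 19 and 20 labelled 4-OHT at day 6, and 35 against 19 at day 4. At that depth the log2 fold change of −0.52 (SE 0.53) had an interval from −1.69 to 0.66. *Psmb10*, the third inducible subunit and not a member, had a log2 fold change of −0.38 (SE 0.22, adjusted p = 0.65) at day 6 and a ratio of −0.60 at day 4.

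The standard subunits give a comparison within each library that does not depend on scaling. *Psmb9* had 14.6 and 13.6 reads per 100 *Psmb6* reads with EtOH and 10.2 and 8.88 labelled 4-OHT at day 6, and 13.9 against 7.40 at day 4. *Psmb10* had 75.6 and 70.7 reads per 100 *Psmb7* reads with EtOH and 53.2 and 62.2 labelled 4-OHT, and 64.3 against 36.5 at day 4. All 3 labelled libraries lay below all 3 EtOH libraries for both ratios. For the levels of single genes, both labelled libraries lay below at day 6 and the labelled one was lower at day 4 in 14.2% of genes; no such share was computed for ratios. *Psmb8* per 100 *Psmb5* reads was 1.91 and 5.45 with EtOH, 2.48 and 2.999 labelled 4-OHT, and 5.57 against 4.13 at day 4, so its day 6 groups overlap. These ratios were not tested. *Psmb5* and *Psmb6* had log2 fold changes of −0.27 and −0.26 at day 6 (adjusted p = 0.82 and 0.76), and none of the 14 standard core subunits was called at day 6 by edgeR (0 at an unadjusted p under 0.05) or by DESeq2.

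**Figure D2:**
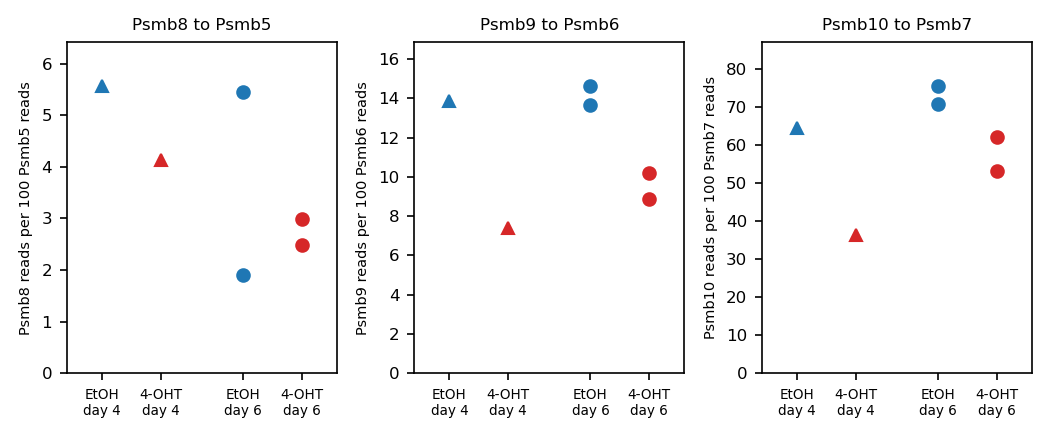
Reads of each inducible proteasome subunit per 100 reads of the standard subunit it replaces, 1 point per library (triangles day 4, circles day 6, blue EtOH, red labelled 4-OHT), each vertical axis starting at 0. *Psmb9* per *Psmb6* is 13.6 to 14.6 in the EtOH libraries and 7.40 to 10.2 in those labelled 4-OHT, while the *Psmb8* day 6 groups overlap.

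*Psmb9* and *Tap1* are neighbours that are read in opposite directions from start sites close together, and 743 of their exon bases overlap in the GENCODE annotation used here. The letters between the RefSeq starts are shown because the ratio of the pair differed between the labels in all 6 libraries (GRCm38.p6 chr17:34187331-34187555, plus strand, 225 bases).
Psmb9-Tap1: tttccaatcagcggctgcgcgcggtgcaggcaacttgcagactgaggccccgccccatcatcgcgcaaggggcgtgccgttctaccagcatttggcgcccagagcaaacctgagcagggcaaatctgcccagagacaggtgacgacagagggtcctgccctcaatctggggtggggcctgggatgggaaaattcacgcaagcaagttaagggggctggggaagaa
Neither form of the element occurs in it. *Tap1* had 99.8 and 149 reads per 100 *Psmb9* reads with EtOH and 264 and 201 labelled 4-OHT at day 6, and 136 against 444 at day 4. Every labelled library was above every EtOH library, and the share of other gene pairs that separate so was not computed. The strand setting of the counting is not given in the sources used here. Reads in the shared bases may have been split by strand or counted for neither gene. Ambiguous reads made up 5.28 to 5.88% of entries in the libraries, and the ratio was not tested.

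The remaining 3 members were at or near the limit of detection. *Nlrc5*, the transactivator of class I genes (chromosome 8, 95160984 to 95253900, plus strand), had 11 counts (EtOH) and 5 (labelled 4-OHT) at day 4, 0 in both EtOH libraries of day 6, and 3 and 1 labelled 4-OHT. *Cd74*, the class II invariant chain, had 1 to 5 counts per library. *H2-Ab1*, the class II beta chain (chromosome 17, 34476663 to 34488393, plus strand), had 1 count in 1 library labelled 4-OHT of day 6 and 0 in the other 5. A count of 0 allows up to 3 counts, or 0.139 to 0.203 CPM in these libraries, counting error only. *Ciita*, the class II transactivator, had 8 and 4 counts at day 4 and 0 to 3 at day 6.

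Per kilobase of exon, and as a mean over the 6 libraries, the order of levels was *H2-D1* (121 ± 18.1 CPM per kilobase, SD, n = 6), *H2-K1* (109 ± 14.7), *B2m* (76.0 ± 10.96), *Tapbp* (7.55 ± 1.10), *Tap1* (4.58 ± 1.22), *Psmb9* (3.91 ± 1.48) and *Psmb8* (0.382 ± 0.116). The ranges of *H2-D1* and *H2-K1* overlap, as do those of *Tapbp* and *Tap1* and of *Tap1* and *Psmb9*. *Psmb8* lay below *Psmb9* in every library. *B2m* lay below *H2-K1*, its highest library at 86.2 and the lowest of *H2-K1* at 91.2. The lengths count all annotated exon bases of a gene (3800 for *Psmb9*, 4409 for *Tapbp* and 6007 for *Tap1*). A gene expressed mainly as a shorter transcript can therefore be placed too low in this order. The heavy chain genes have near-identical relatives, and reads that map to several places are in no gene, so their levels are uncertain as well.

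Interferon alpha/beta response genes were higher in the libraries labelled 4-OHT on both days. Of 33 genes on the interferon alpha/beta list, 30 were tested at day 6, 29 had a positive log2 fold change and 8 were called higher, where 2.27% of all genes were called higher. Their median was 1.64 at day 6 and 1.28 at day 4, beside 0.018 and −0.18 for the 7 tested members. Genes that are low in EtOH pass the filter through the labelled libraries, so these counts describe the list and are no test of it. The list and the members were not compared by a test.

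*Rsad2*, which encodes the antiviral enzyme viperin, had 7 and 5 counts with EtOH and 74 and 65 labelled 4-OHT at day 6 (log2 fold change 3.35, SE 0.52, adjusted p = 0.0081). *Ifit1*, which binds foreign RNA, had 20 and 23 against 139 and 164 (2.66, SE 0.39, adjusted p = 0.0057). *Ifit3*, its partner, had 8 and 9 against 54 and 53 (2.48, SE 0.51, adjusted p = 0.035), but 7 against 6 at day 4. *Rtp4*, a receptor transport protein gene, and *Oas3*, a sensor of double-stranded RNA, missed the threshold at day 6 (adjusted p = 0.066 and 0.10) and were called over both days (2.95 and 2.52, adjusted p = 0.011 and 0.025). *Oasl1* and *Irf7*, also on the list, were called at day 6 by edgeR (2.33 and 2.23, adjusted p = 0.00092 and 0.0022). With each day 6 library left out, *Oasl1* ran from 2.08 to 2.56 and *Irf7* from 2.04 to 2.47. The calls of *Rsad2*, *Ifit1*, *Ifit3*, *Rtp4* and *Oas3* rest on few libraries. Without the first EtOH library of day 6 the adjusted p was 0.096 for *Rsad2*, 0.084 for *Ifit1* and 0.24 for *Ifit3*, and without the second it was 0.069 for *Rsad2* and 0.11 for *Ifit3*. Over both days *Rtp4* lost its call without either day 4 library or the first EtOH library of day 6 (adjusted p = 0.058 to 0.067), and *Oas3* without any of those 3 or the second labelled library of day 6 (0.092 to 0.11). For *Rsad2*, *Ifit1*, *Rtp4* and *Oas3* the labelled day 4 library was also the higher one.

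**Figure D3:**
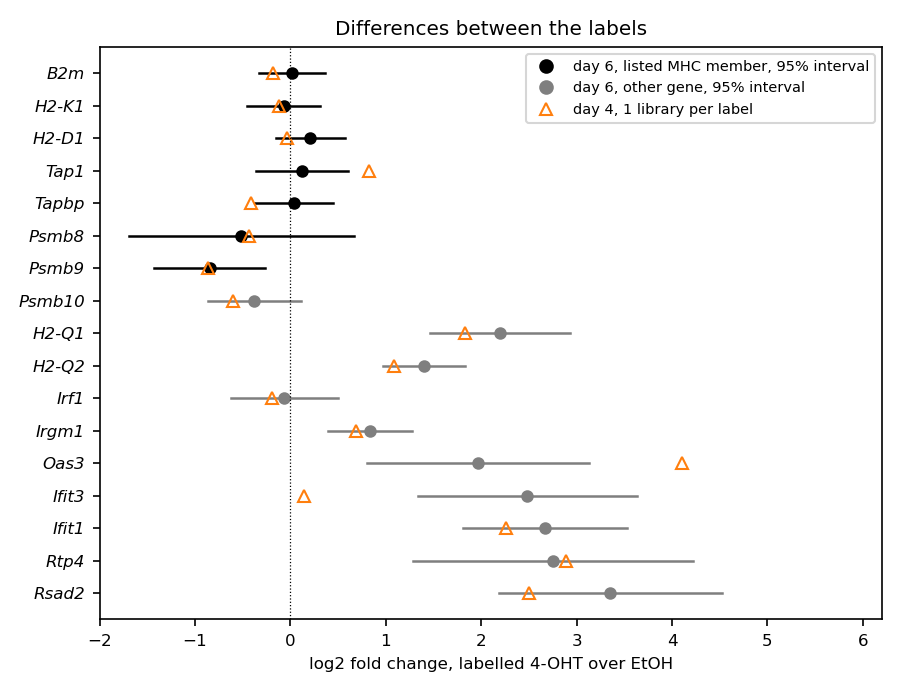
Log2 fold change (labelled 4-OHT over EtOH) at day 6 with its 95% interval for 7 MHC and processing genes (black) and for other named genes (grey), with the day 4 ratio of 1 library per label as an open triangle. The intervals of 6 of the 7 black genes include 0, and those of *Rsad2* and *Ifit1* lie above 1.

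Genes of the interferon gamma response, the program that most strongly includes MHC genes, were sparsely detected. Its 20 listed genes summed to 26.6 and 29.3 CPM with EtOH and 51.7 and 43.6 CPM labelled 4-OHT at day 6. At day 4 they summed to 26.2 CPM (EtOH) and 41.8 CPM (labelled 4-OHT), and these sums were not tested. Of the 20 genes, 6 could be tested at day 6 and 4 had no count in any library. Of the 6 tested, 4 had a positive log2 fold change (median 0.38), beside 48.2% of all genes tested. None was called at day 6 by edgeR (2 at an unadjusted p under 0.05) and 1, *Irgm1*, by DESeq2. *Irgm1*, an interferon-induced GTPase of cell-autonomous defence, was called higher over both days (log2 fold change 0.78, adjusted p = 0.0094), a call lost without either day 4 library or the first labelled library of day 6 (adjusted p = 0.056 to 0.070). *Irf1*, the factor through which interferon gamma acts on class I promoters, had 294 and 274 counts with EtOH and 267 and 333 labelled 4-OHT at day 6, with a log2 fold change of −0.062 (SE 0.25, adjusted p = 0.97). *Ifnb1*, *Ifnl3* and *Ifng* had 0 counts in all 6 libraries, which allows up to 3 counts in each. They were the only 3 such genes among the 15 listed ligand, receptor and signalling genes. The other listed ligands, *Ifna1*, *Ifna4* and *Ifnl2*, each had at least 1 count in some library but too few to test at day 6. None of the 8 tested ligand, receptor and signalling genes was called at day 6 by edgeR (0 at an unadjusted p under 0.05) or by DESeq2.

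**Figure D4:**
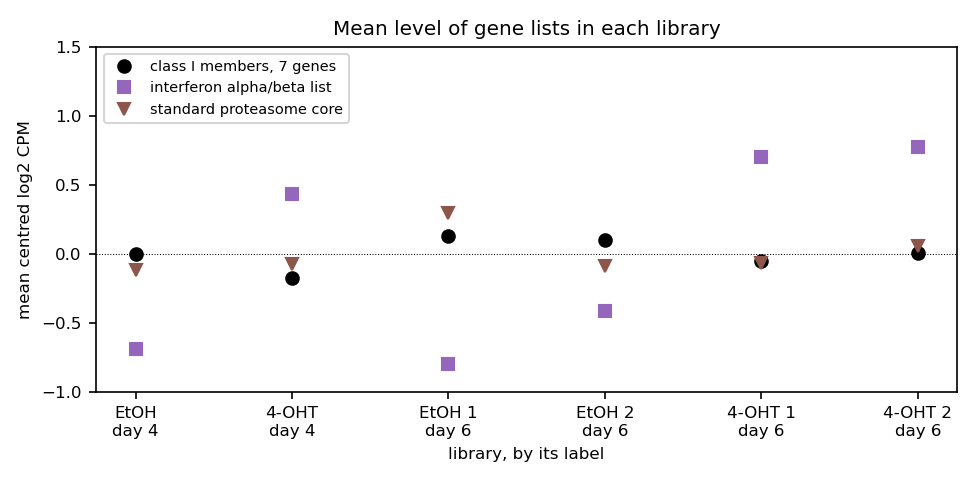
Mean centred log2 CPM of 7 class I and loading genes (black circles), the interferon alpha/beta list (purple squares) and the standard proteasome core (brown triangles) in each of the 6 libraries. The squares are below 0 in the 3 EtOH libraries and above 0 in the 3 labelled 4-OHT, while the circles stay between −0.18 and 0.13.

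In the plot of list means by library, the interferon alpha/beta list lay at −0.69 (EtOH) and 0.43 (labelled 4-OHT) at day 4. At day 6 it lay at −0.80 and −0.42 with EtOH and 0.70 and 0.78 labelled 4-OHT. The 7 class I and loading members lay at −0.0022 and −0.18 at day 4, at 0.13 and 0.10 with EtOH at day 6, and at −0.054 and 0.0038 labelled 4-OHT. These 7 leave out *Nlrc5*, a choice made after seeing the data. With *Nlrc5* the means were 0.19 (EtOH) and −0.032 (labelled 4-OHT) at day 4, and at day 6 −0.022 and −0.047 with EtOH and −0.032 and −0.058 labelled 4-OHT, where the groups overlap. Either way no labelled library lay above every EtOH library of its day.

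A pair of other class I heavy chain genes rose. Of 20 further heavy chain genes, 13 were tested at day 6 and 2 were called higher, where 2.27% of all genes tested were called higher. *H2-Q1* (chromosome 17, 35539381 to 35544075, plus strand) had 73 and 37 counts with EtOH and 313 and 249 labelled 4-OHT at day 6, and 16 against 47 at day 4 (log2 fold change at day 6 2.20, SE 0.33, adjusted p = 0.0066). *H2-Q2* (chromosome 17, 35561087 to 35566181, plus strand) had 333 and 293 against 925 and 906, and 196 against 314 at day 4 (1.40, SE 0.19, adjusted p = 0.0045). Every labelled library was above the EtOH libraries of its day for both genes, as for 16% of all genes tested, and both day 6 calls stood with each library left out in turn. They belong to the Q region of non-classical class I genes, whose members are near copies, so how reads were shared among them is uncertain. The median over the 13 genes was 0.19.

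**Figure D5:**
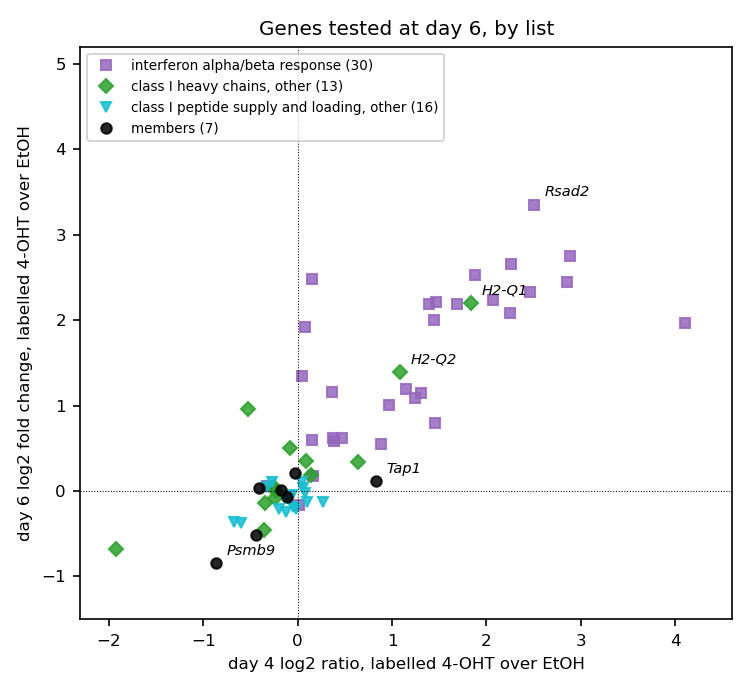
Log2 fold change at day 6 (vertical) against the log2 ratio of single libraries at day 4 (horizontal), both labelled 4-OHT over EtOH, for the genes of 4 lists tested at day 6. The 7 members (black) have day 6 values from −0.85 (*Psmb9*) to 0.21 (*H2-D1*) and day 4 ratios from −0.87 (*Psmb9*) to 0.83 (*Tap1*), while *H2-Q1* and *H2-Q2* lie among the interferon genes.

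None of the other peptide supply and loading genes passed the test at day 6. All 16 were tested there and 4 were positive, with a median of −0.11. None was called at day 6 by edgeR (0 at an unadjusted p under 0.05) or DESeq2. Over both days edgeR called none of the 16 and DESeq2 called 1 lower. DESeq2 called 190 of all 16031 genes lower over both days. Of 15 further class II genes 7 were tested and none was called at day 6 by edgeR (2 at an unadjusted p under 0.05) or DESeq2. *Marchf8*, a ubiquitin ligase that removes class II from the surface, was called over both days (log2 fold change 0.50, adjusted p = 0.037), a call lost without any single library but the second EtOH library of day 6 (adjusted p = 0.053 to 0.21). None of 11 tested MHC transcription factors was called at day 6 by edgeR (1 at an unadjusted p under 0.05) or DESeq2, with a median of −0.059.

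The label effect on the members did not pass a test of difference between days. That test called 0 of 16031 genes by edgeR (297 at an unadjusted p under 0.05) and 6 by DESeq2, none of them a member, and its spread comes from the day 6 pairs alone.

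Enterocyte markers moved with the label as well. Their summed level was 1723 and 1876 CPM with EtOH and 4922 and 3962 CPM labelled 4-OHT at day 6, and 1361 against 1844 CPM at day 4. At day 6, 9 of 12 were called higher, where 2.27% of all genes tested were called higher. Among stem cell markers *Olfm4* was called lower (log2 fold change −1.27, adjusted p = 0.031). The 10 stromal and endothelial markers summed to 6.27 and 3.76 CPM with EtOH and 9.24 and 8.04 CPM labelled 4-OHT at day 6, and to 8.76 and 9.14 CPM at day 4. The 26 immune markers summed to 0.911 and 1.97 CPM with EtOH and 1.67 and 4.02 CPM labelled 4-OHT at day 6, and to 3.46 and 2.71 CPM at day 4. In sorted bulk cells, fewer cells of a type and less RNA per cell cannot be told apart. The part of enterocyte, stem, stromal or immune cell genes in the changes of *H2-Q1*, *H2-Q2*, *Psmb9* and the interferon genes was not tested.

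The genes whose pattern over the 6 libraries was most like the mean of the 8 class I and loading members were *Egr1* (Pearson r 0.997), *Fos* (0.974), *Elk1* (0.963), *Exd2* (0.954) and *Nr4a2* (0.952), among 10121 protein-coding genes that averaged 5 CPM or more. That profile was carried by the few counts of *Nlrc5*, since the r of 6 other members with it ran from −0.57 to 0.32. *Nlrc5* and *Psmb8* averaged under 5 CPM and have no r, though both are in the mean. Without *Nlrc5*, a choice made after seeing the data, the leading genes were *Ctdsp1* (0.995), *Nae1* (0.993), *Nr1h2* (0.991), *Exoc6* (0.989) and *Vrk3* (0.987), none of them shared. Against that profile *Psmb9*, *Tapbp*, *H2-K1* and *B2m* had r of 0.74 to 0.85, *H2-D1* 0.34 and *Tap1* −0.82. Each of these genes is part of the mean it is set against, so its r is partly built in. The 6 points share label and day, and the values describe likeness only.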

How the data were processed

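Gene read counts of 6 libraries were used. The authors deposited raw whole-number counts for 56884 Ensembl genes, of which 56323 matched the GENCODE annotation of GRCm39; the submitters' processing notes name STAR and mm39. The annotation release and strand setting are not given in the sources used here. Summary lines for reads in no gene held 19.29 to 26.71% of entries and stayed out of library sizes and tests. Libraries were grouped by the treatment and day in their labels. Replicates differed by more than sampling noise (chi-square per degree of freedom 33.2 and 22.9).

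Counts were scaled with TMM and tested with edgeR 4.0.16 (filterByExpr with a minimum count of 10, quasi-likelihood F test, Benjamini-Hochberg adjustment over all genes tested, threshold 0.05) in R 4.3.3. The day 6 fit used 4 libraries, and the fit over both days used 6 libraries with day as a term. Day 4 ratios used a prior count of 2 and have no test. SE is the absolute log2 fold change over the square root of F. Intervals are at 95%. DESeq2 1.42.0, other scalings, filters and left-out libraries were tried as alternatives, and the fits were tested on simulated data. Named genes were the 10 members, *Ythdf2*, in each list at most 5 called genes with the largest change, defining markers, *Ciita*, *Irf1*, proteasome partners and the 5 genes of most like pattern. *Oasl1*, *Irf7* and *Itgam* were named in addition, after seeing the data. The members and lists were chosen with earlier results of these data known. RefSeq promoters came from a GRCm38.p6 table. A withheld item is not reported here.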

Additional observations from a re-analysis of the deposited data

How the results depend on the processing

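Leaving out each library moved the day 6 count of 353 genes to between 113 and 409 (lowest without EtOH replicate 1), with 0 members called each time, and the both-days count of 656 to between 367 and 662, with 0 to 1 members. The count of genes whose label effect differed between days, 0, became 0 to 26 with a library left out and 6 with DESeq2. A replicate block at day 6 gave 839 genes and 1 member (*Psmb9*, −0.82, adjusted p = 0.021). The labels do not say whether libraries with the same replicate number are paired. There are 2 such pairs, and the correlation of same-numbered libraries' deviations was 0.266. Without the day term the both-days count was 348 with 0 members. DESeq2 called 505 genes at day 6 and 863 over both days. Signs turned when a library was left out: at day 6, *H2-K1* ran from −0.21 to 0.089, *B2m* from −0.043 to 0.082, *Tap1* from −0.11 to 0.31, *Tapbp* from −0.039 to 0.11 and *Irf1* from −0.35 to 0.18; over both days, *B2m* from −0.11 to 0.017, *Tapbp* from −0.19 to 0.035 and *Irf1* from −0.29 to 0.032. The 5 genes of most like pattern shared 0 with those from day 6 alone and 0 with those from the members tested at day 6 only, a choice made after seeing the data, as was a filter by label (618 genes over both days). The cause of these changes was not tested. Values were recomputed for the 7 tested members and some other named genes. Of these values, 379 were unchanged, 36 lost and 7 gained the call, and 12 turned sign. Unchanged means the same direction and side of the threshold, so a gene that stays uncalled counts as unchanged. Day 4 ratios have no test, and for them it means the same direction and a shift within counting error. Depth limits *Psmb8*, *Nlrc5*, *Cd74* and *H2-Ab1*.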
